A study of Mus musculus with 6 samples.

Results

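Many protein-coding genes were at a modestly lower level in ileum labelled as overexpressing HIF-1α in the gut epithelium, and 110 of them are described here, after genes named as members of the large transporter, channel and cytochrome P450 families were set aside by name. They were chosen by their values in the genotype contrast itself: protein-coding rows of the deposited table with a mean of at least 100 size-factor-normalized counts over the 6 libraries, with all 3 overexpression libraries below all 3 flox libraries. Gene names beginning with Slc, Abc, Atp, Kcn, Aqp, Clc, Cacn, Scn, Trp or Cyp were left out, as were Hif1a, Edn1, Me3, Defb37, Lgr5, Axin2, Dbp, Nr1d1, Ciart and Cd22. Of the 923 genes in the table, 656 are protein-coding and 454 of these reach the mean of 100. The groups were apart and lower for 135 of the 454, or 29.7%, and apart and higher for 196, and the names set aside removed 25 of the 135. Because the values chose the members, their lower level in the genotype contrast is a description and carries no test.

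Ileum RNA came from 3 mice labelled overexpression (Hif1α LSL/LSL;VilERcre) and from 3 mice labelled flox control (Hif1α LSL/LSL). Both groups were homozygous for the LSL-HIF1 dPA allele on a C57BL/6 background and both received tamoxifen, and only the overexpression mice carried the Cre. The Cre is driven by the villin promoter, so recombination is directed to the intestinal epithelium. The RNA was total RNA from ileum in bulk, and the sources used here do not say which layers of the wall were taken. The labels give replicates 1 and 2 as male and replicate 3 as female in each group, the study's text calls the sequenced mice male, and neither their diet nor their age at collection is given in the sources used here. In bulk tissue, fewer cells of a type and less RNA per cell cannot be told apart.

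HIF-1α is the oxygen-regulated subunit of the transcription factor HIF-1, which binds a short core sequence and activates glycolysis, angiogenesis and pH genes when oxygen is low. In the small intestine the villus is poorly oxygenated by nature, and its absorptive enterocytes carry peptidases, conjugating enzymes and lipid-handling enzymes, while crypt cells such as Paneth cells secrete defensins.

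The deposited Hif1a row ran against the labels. It held 535, 728 and 741 normalized counts in the 3 libraries labelled overexpression, against 741, 1063 and 1185 in the 3 labelled flox control. The sources used here do not say whether reads of the LSL-HIF1 dPA transgene are counted in that row, so it does not check the labels. Vegfa, the vascular growth factor that is a classic HIF-1 target, held 3041, 3066 and 3112 normalized counts in overexpression libraries, against 1771, 1869.6 and 2278 in flox libraries, and is given here after its values were seen. Directions below are those of the labels.

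Promoter windows of 4 of the genes are printed to show members with 0 to 3 HIF core matches, picked after the matches were seen: Agmo and Gnpat act at opposite ends of ether lipid metabolism, Guca2b is an abundant gut peptide, and Neo1 is a guidance receptor. Each window runs from 250 bases before to 50 bases after the annotated start, 5′ to 3′ on the gene's strand, from RefSeq on GRCm38.p6, and capitals mark ACGTG or GCGTG, the HIF core, on either strand. The Agmo window is chr12:37241389-37241688, plus strand, that of Gnpat chr8:124862783-124863082, plus strand, that of Guca2b chr4:119658896-119659195, minus strand and that of Neo1 chr9:59036392-59036691, minus strand.
Agmo: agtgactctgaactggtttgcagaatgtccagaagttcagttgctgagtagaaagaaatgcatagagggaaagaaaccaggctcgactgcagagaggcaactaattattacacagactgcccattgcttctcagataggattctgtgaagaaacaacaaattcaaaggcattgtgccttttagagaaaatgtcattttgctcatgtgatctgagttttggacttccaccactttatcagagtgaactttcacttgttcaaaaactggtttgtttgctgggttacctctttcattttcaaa
Gnpat: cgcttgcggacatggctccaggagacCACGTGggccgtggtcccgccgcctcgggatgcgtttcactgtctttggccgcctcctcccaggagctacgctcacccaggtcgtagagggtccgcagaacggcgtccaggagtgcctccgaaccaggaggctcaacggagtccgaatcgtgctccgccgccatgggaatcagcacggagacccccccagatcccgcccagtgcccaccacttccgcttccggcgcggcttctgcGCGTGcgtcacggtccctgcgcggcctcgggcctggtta
Guca2b: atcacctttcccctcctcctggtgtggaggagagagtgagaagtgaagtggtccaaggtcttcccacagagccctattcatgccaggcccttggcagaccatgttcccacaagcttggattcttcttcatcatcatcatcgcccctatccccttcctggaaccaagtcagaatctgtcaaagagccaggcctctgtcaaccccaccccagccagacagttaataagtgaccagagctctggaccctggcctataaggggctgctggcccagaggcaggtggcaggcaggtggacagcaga
Neo1: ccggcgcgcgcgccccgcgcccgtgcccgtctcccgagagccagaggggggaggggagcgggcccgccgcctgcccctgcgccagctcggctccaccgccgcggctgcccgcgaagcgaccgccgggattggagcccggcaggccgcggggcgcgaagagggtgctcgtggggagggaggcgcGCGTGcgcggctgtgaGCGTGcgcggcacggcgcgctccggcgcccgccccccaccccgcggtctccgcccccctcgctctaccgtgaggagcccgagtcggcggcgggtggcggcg
The Agmo and Guca2b windows hold 0 core matches. The Gnpat window holds 3, of which the overlapping pair lies in CACGTG, read once on each strand. The Neo1 window holds 2, both GCGTG.

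The difference was small for most members. The median log2 fold change, overexpression over flox, was -0.47 over the 110 genes, with a range of -1.70 to -0.24 and middle values between -0.63 and -0.37. The overexpression mean was at a median of 72.2% of the flox mean, with a range of 30.8% to 85.0%. The log2 fold change was below -0.5 for 46 members, below -0.75 for 11 and below -1 for Defa32 alone. Over the 767 rows tested, which had a mean normalized count of 5 or more, the median was 0.34 and 352 had a negative value, so the members were set against a table that leans higher in overexpression ileum.

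**Figure D1:**
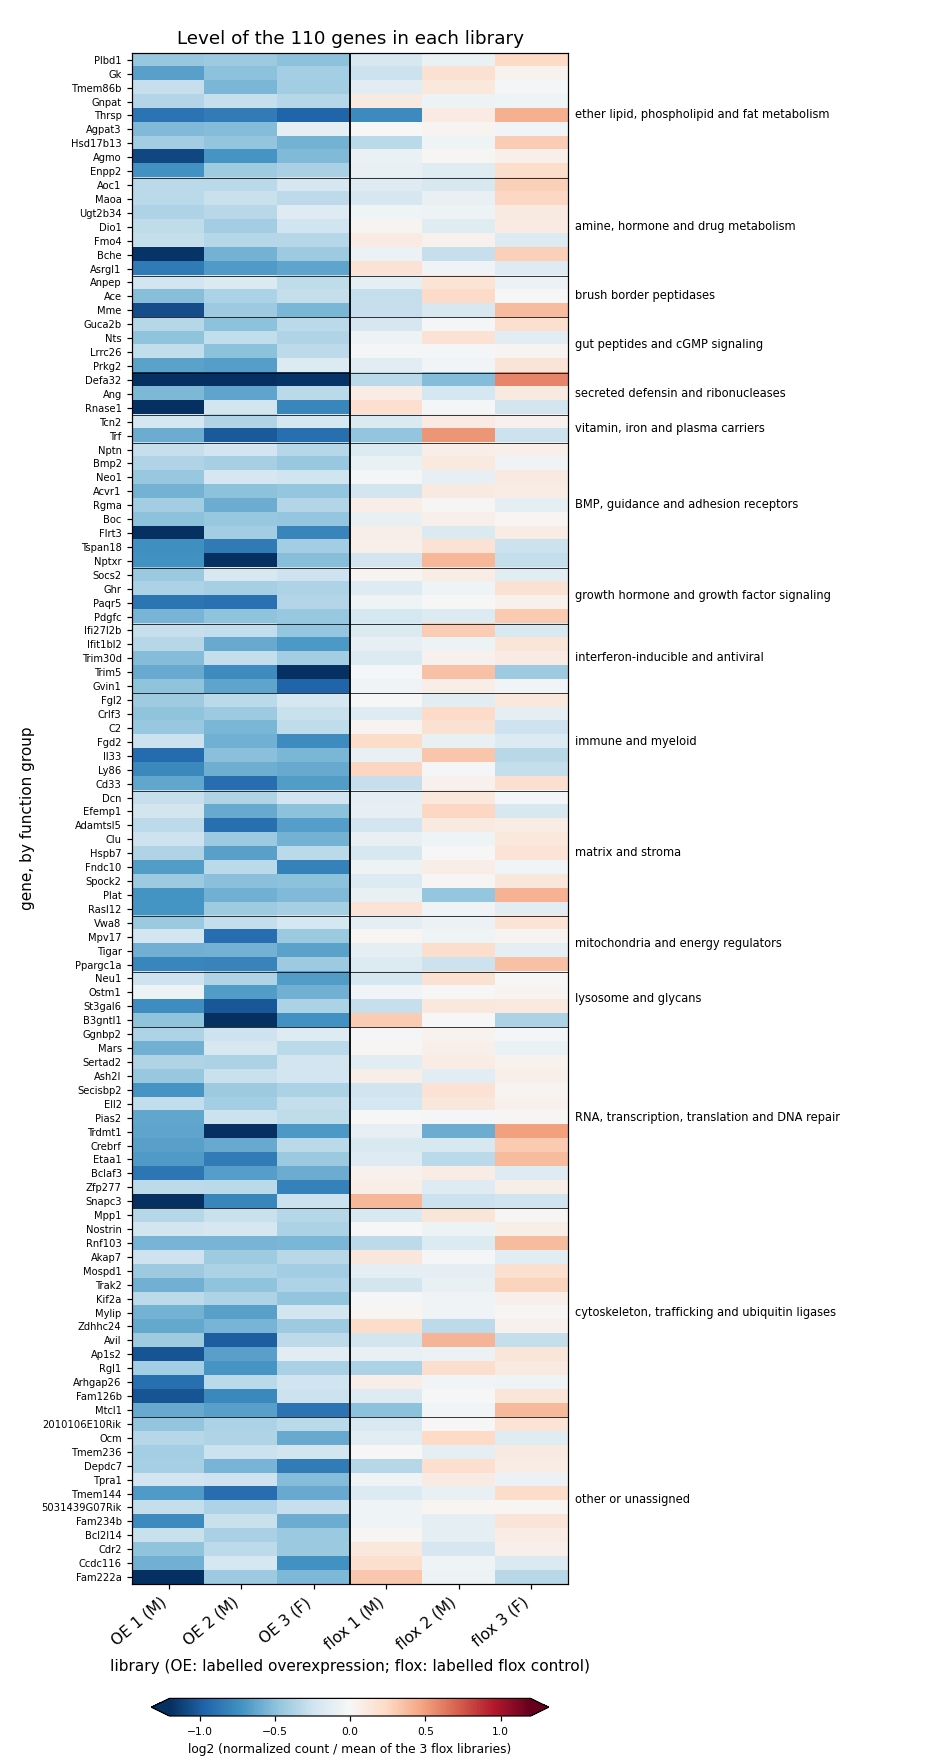
Heat map of the 110 genes (rows, by function group and, within a group, from the highest to the lowest mean FPKM) in the 3 overexpression and 3 flox libraries (columns, with the sex in the labels). Colour is log2 of the normalized count over the mean of the 3 flox libraries, cut at 1.2 either way, and in each row the overexpression cells are bluer than the flox cells because that separation chose the genes.

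The extremes came from all libraries, but unevenly. The lowest overexpression value came from replicate 1 for 48 members, replicate 2 for 37 and replicate 3 for 25, and the highest flox value came from replicate 1 for 19, replicate 2 for 40 and replicate 3 for 51. The highest overexpression value came from replicate 1 for 30, replicate 2 for 27 and replicate 3 for 53. The lowest flox value came from replicate 1 for 51, replicate 2 for 30 and replicate 3 for 29. The median member stood at 71.6%, 72.4% and 74.8% of its flox mean in overexpression replicates 1, 2 and 3, against 93.8%, 98.9% and 104% in flox replicates 1, 2 and 3. The members took between 1.12% and 1.18% of the library total in overexpression ileum, against 1.38% to 1.64% in flox ileum, a direction that the rule fixed. Anpep weighed heavily in it. The members summed to 249359 to 260835 normalized counts in overexpression libraries, against 305852 to 359372 in flox libraries. Without Anpep the sums were 132044 to 145986, against 178446 to 228044. Library totals implied by the deposited FPKM ran from 18918341 to 24905343, and size factors from 0.858 to 1.14.

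The gap between the groups was narrow. The lowest flox library stood above the highest overexpression library by a median ratio of 1.09, under 1.1 for 58 members and over 1.3 for 7, with 1.58 for Defa32 as the largest. Just inside this separation were Ace, with a ratio of 1.0016, and Rgl1, with 1.0018. Just outside it were Gm7694 and Sesn1, both with 0.994. Just inside the mean of 100 were Nptxr, with a mean of 101.8 normalized counts, and Trim5, with 112, and just outside it were Il1rap, with 99.1, and Epha4, with 99.4.

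For 24 members, leaving out 1 library moved the log2 fold change by more than 1.5 times. Flox replicate 3, the female, did so for 11 of them: without it the value was -0.59 for Trdmt1, -0.47 for Mtcl1, -0.42 for Mme, -0.41 for Etaa1, -0.34 for Plat, -0.33 for Crebrf, -0.32 for Rnf103, -0.31 for Pdgfc, -0.30 for Hsd17b13, -0.16 for Maoa and -0.11 for Aoc1. Without flox replicate 2 it was -0.46 for Trf, -0.29 for Avil, -0.28 for Efemp1, -0.26 for Ace, -0.17 for Ifi27l2b and -0.15 for Anpep. Without overexpression replicate 1 it was -0.62 for Ostm1, -0.49 for Fam222a, -0.47 for Rnase1, -0.37 for Ap1s2 and -0.28 for Arhgap26. It was -1.22 for Rnase1 and -0.33 for Mpv17 without overexpression replicate 2, and -0.46 for Snapc3 without flox replicate 1.

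In edgeR's quasi-likelihood test, adjusted over the 19204 genes of the authors' test by the Benjamini-Hochberg method, 0 members reached an adjusted p under 0.05, against a share of 0.13% of all 767 rows, which is 1 gene, Cyp3a11. An unadjusted p under 0.05 with a lower level was held by 91 members, beside 37% of the 767 rows. The rule used this contrast and the table itself holds genes picked by their p, so nothing is read from either count. DESeq2 called 1 member lower, Agmo, among 13 of all rows, or 1.69%. Apart from Defa32, the more abundant genes had the smaller log2 differences: the median log2 fold change was -0.65 in the 37 members with the lowest means (101.8 to 341 normalized counts), -0.43 in the middle 36 and -0.33 in the 37 with the highest. The median standard error was 0.24, 0.17 and 0.14 in the same order. Selection by p and by separation tends to admit a gene with a large standard error only if its difference is large. The trend with abundance is therefore partly built in, and nothing is read from it.

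**Figure D2:**
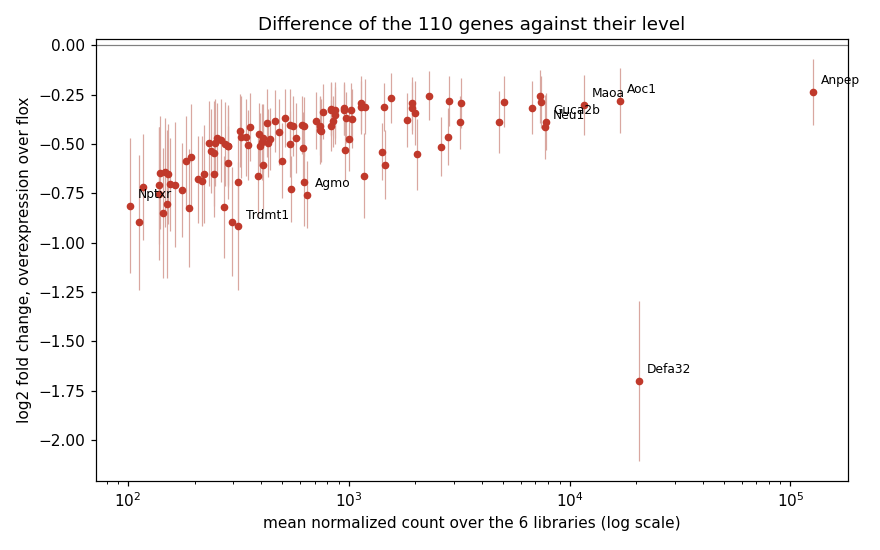
Log2 fold change, overexpression over flox, with its standard error, against the mean normalized count of each of the 110 genes on a log axis. Genes with a low mean sit further below 0, a trend that the selection by p and separation favours. Defa32, at -1.70, stands apart from the other abundant genes.

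Ether lipids, in which a fatty chain is joined to glycerol by an ether bond, are made in peroxisomes and cleaved again by dedicated enzymes, and genes of both directions were among the members. Agmo, the monooxygenase that cleaves alkylglycerols (ENSMUSG00000050103, chr12:37241641-37582202 on GRCm38), held 383, 498 and 564 normalized counts in overexpression libraries, against 770.1, 819.7 and 849 in flox libraries. The flox libraries lay close together. Its log2 fold change was -0.76 ± 0.17 (± standard error, here and below), with a level of 59.2% of flox. Gnpat, the peroxisomal acyltransferase that opens ether lipid synthesis, held 829, 875 and 833 in overexpression libraries, against 1146, 1013 and 1021 in flox libraries. The overexpression values of Gnpat varied little between mice, with a log2 fold change of -0.33 ± 0.13. Tmem86b, a lysoplasmalogenase that cleaves the vinyl ether lipids of membranes, held 527, 434 and 476 in overexpression libraries, against 584, 696 and 629.5 in flox libraries.

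Further enzymes of glycerolipids followed. Plbd1, a lysosomal phospholipase-like protein, held 2379, 2409 and 2316 normalized counts in overexpression libraries, against 2861, 3085 and 3843 in flox libraries. Gk, the glycerol kinase that feeds glycerol into lipid synthesis, held 1951, 2179.7 and 2317 in overexpression libraries, against 2575, 3481 and 3153 in flox libraries. Agpat3, which adds the next fatty acid to lysophosphatidic acid, held 808, 813 and 1076 in overexpression libraries, against 1166, 1189.6 and 1136 in flox libraries. In Agpat3 the female overexpression library lay near the flox values and the male ones well below them. Thrsp, a thyroid-hormone-responsive promoter of lipogenesis, held 208, 215 and 197 in overexpression libraries, against 226, 409 and 516 in flox libraries, so that flox replicate 1 lay close to the overexpression values. The log2 fold changes were -0.46 ± 0.14, -0.51 ± 0.15, -0.37 ± 0.15 and -0.89 ± 0.28 for Plbd1, Gk, Agpat3 and Thrsp. The remaining members of the group, Enpp2, the autotaxin that makes lysophosphatidic acid, and Hsd17b13, a lipid droplet enzyme, had -0.51 and -0.48. Of the 39 genes of the list of fat uptake, triglyceride and chylomicron genes, 4 were in the table, Agmo and Agpat3 lower and Hilpda and Ces1g higher, with 0 called by edgeR, while DESeq2 called Agmo lower.

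**Figure D3:**
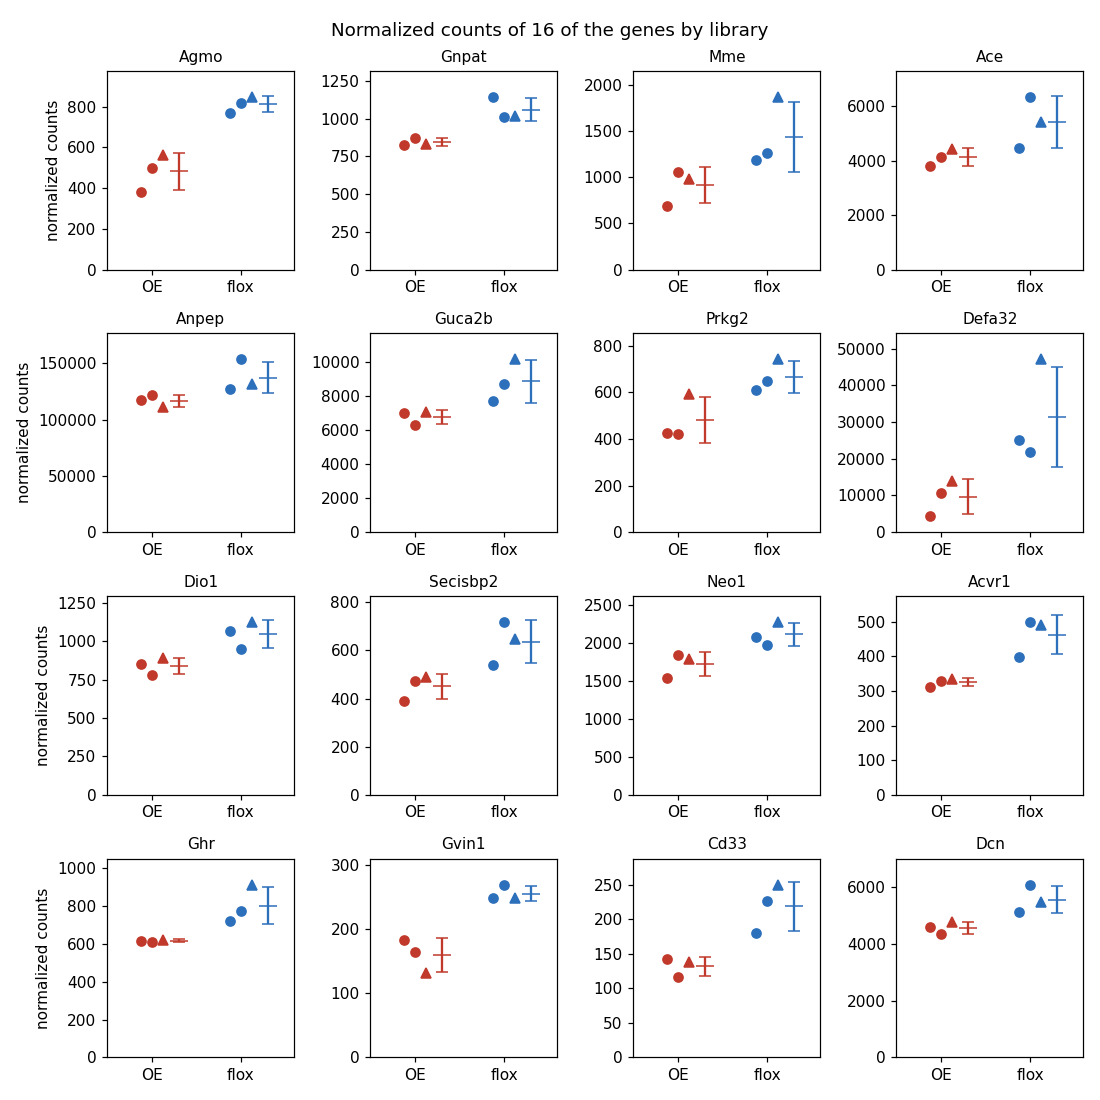
Normalized counts of 16 members in each library (circles, male; triangles, female), with the mean and SD of the 3 libraries of a group beside them, overexpression (OE, red) left of flox (blue). All axes start at 0, and the gap between the groups is wide for Agmo and Gvin1 and narrow for Ace and Anpep.

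Enzymes that clear amines, hormones and drugs included several of the most abundant members. Aoc1, the diamine oxidase with which enterocytes degrade histamine, had a mean level of 234 FPKM over the libraries. It held 14734, 14762 and 16052 normalized counts in overexpression libraries, against 16604, 16164 and 22554 in flox libraries, a log2 fold change of -0.28 ± 0.16. The female flox library stood well above the other flox libraries, which lay just above the overexpression ones. Maoa, the monoamine oxidase of serotonin and noradrenaline, held 10223, 10656 and 10306 in overexpression libraries, against 11136, 12045 and 15276 in flox libraries, again with the female flox library on top. Its log2 fold change was -0.30 ± 0.15. Ugt2b34, a glucuronosyltransferase, held 6314, 6492 and 7328 in overexpression libraries, against 7913, 7831 and 8802 in flox libraries, and had a log2 fold change of -0.29 ± 0.13. Fmo4, a flavin monooxygenase, had -0.33 ± 0.14, Bche, the butyrylcholinesterase, -0.69 ± 0.22, and Asrgl1, an isoaspartyl peptidase, -0.72 ± 0.27. Of 58 conjugating and drug-metabolizing enzymes outside the cytochromes, 5 were in the table, with Ugt2b34, Maoa, Fmo4 and Maob lower and Gsta1 higher, and 0 passed in either direction by edgeR or DESeq2.

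The thyroid hormone enzyme Dio1 and a factor of its translation were both members. Dio1, a selenium-containing deiodinase that activates thyroxine, held 850.1, 784 and 891 normalized counts in overexpression libraries, against 1071, 951 and 1127 in flox libraries. Secisbp2, which binds the messenger RNA element that directs selenocysteine insertion, held 390.0, 471 and 489.6 in overexpression libraries, against 540.4, 719 and 648 in flox libraries. Log2 fold changes were -0.32 ± 0.13 for Dio1 and -0.50 ± 0.17 for Secisbp2.

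Of 24 digestive peptidases and disaccharidases, only 3 were in the table. All 3 were members, beside 110 of the 454 protein-coding rows of the same minimum mean, and nothing is read from so small a count. These ectoenzymes of the brush border trim peptides at the cell surface, and none of the disaccharidases of the list was in the table. Anpep, aminopeptidase N, was the most abundant member by count, at 117315, 121630.0 and 111350.0 normalized counts in overexpression libraries, against 127405, 153611 and 131328 in flox libraries. It stood at 85.0% of its flox level, the smallest difference of all members, with a log2 fold change of -0.24 ± 0.17. Ace, the angiotensin-converting enzyme, held 3803, 4151 and 4439.9 in overexpression libraries, against 4447, 6348 and 5426 in flox libraries, so that the female overexpression library and flox replicate 1 were nearly equal. Mme, the endopeptidase neprilysin, held 691, 1062 and 984 in overexpression libraries, against 1188, 1259 and 1875 in flox libraries. The log2 fold change was -0.39 ± 0.16 for Ace and -0.66 ± 0.22 for Mme. Neither edgeR nor DESeq2 called a gene of the list. Among 27 ileal enterocyte markers, 2 were in the table, Anpep and Fabp6, the ileal bile acid binding protein. Fabp6 held 66849.5, 51098 and 36234 normalized counts in overexpression libraries, against 44735, 37897 and 33689 in flox libraries, where the groups overlapped and the mean was higher in overexpression ileum. The sum of both markers ran from 147584 to 184164 in overexpression libraries and from 165017 to 191508 in flox libraries.

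Peptides and kinases of fluid secretion formed a small group. Guca2b encodes uroguanylin, a peptide that activates the guanylate cyclase of the gut surface and so raises cGMP in enterocytes. It held 6977, 6274 and 7054 normalized counts in overexpression libraries, against 7692, 8713 and 10154 in flox libraries, at a mean of 407 FPKM. Prkg2, the cGMP-dependent kinase of the same route, held 427, 423 and 594 in overexpression libraries, against 608, 650.1 and 741 in flox libraries. The female libraries were the highest of their group for both genes. Nts, the peptide neurotensin of ileal endocrine cells, held 1479, 1677 and 1607 in overexpression libraries, against 1976, 2335 and 1883 in flox libraries, and it was the only one of 21 enteroendocrine markers in the table. Lrrc26, an auxiliary subunit of a potassium channel of secretory epithelia, held 891, 778 and 884 in overexpression libraries, against 1086, 1081 and 1125 in flox libraries. Log2 fold changes in this group lay within a narrow band, -0.39 ± 0.15 for Guca2b, -0.47 ± 0.18 for Prkg2, -0.38 ± 0.14 for Nts and -0.37 ± 0.13 for Lrrc26.

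Defa32, an α-defensin of the kind that Paneth cells secrete against bacteria, had the largest log2 difference and also the largest standard error of it. It held 4383, 10724 and 13880.3 normalized counts in overexpression libraries, against 25151, 21954 and 47114 in flox libraries. Each female library was the highest of its group, and the overexpression mean was 30.8% of the flox mean, with a log2 fold change of -1.70 ± 0.40. In GENCODE M21 transcripts, 99.6% of its 150-base windows also occur in other genes, among them Defa20, Defa33 and Defa2, so the row cannot be told apart from its near copies. The table holds 4 α-defensin rows, and they did not share a direction. Defa37 held 2728, 3458 and 3795 in overexpression libraries, against 2344, 2840.4 and 1885 in flox libraries. Defa31 held 179, 187 and 240.1 in overexpression libraries, against 139, 4578 and 353 in flox libraries, where flox replicate 2 stood far above the rest. Defa26, the only listed gene of 16 Paneth cell markers, held 1407, 1778 and 1624 in overexpression libraries, against 2375, 1861 and 1742 in flox libraries, where the groups overlapped. Whether Paneth cell number moved with Defa32 was not tested.

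A pair of secreted ribonucleases lay near each other in the genome. Ang, angiogenin, held 345, 324 and 402 normalized counts in overexpression libraries, against 533, 433 and 542 in flox libraries, and Rnase1, the pancreatic-type ribonuclease, held 53.3, 163 and 111, against 219, 188 and 164. The values of Rnase1 in overexpression replicate 2 and flox replicate 3 almost touched, and its log2 fold change was -0.81 ± 0.38, against -0.49 ± 0.17 for Ang. The genes lie 42989 bases apart on chromosome 14. The only other members within 100 kb of each other were C2 and Neu1, 32988 bases apart on chromosome 17. In all, 3.64% of members had another member within that distance, against 13.22% of the 454 protein-coding rows counted among themselves, a larger set. Members lay on 20 chromosomes, with 7 on chromosome X.

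Genes for carriers of vitamin B12 and iron were among the members. Tcn2, transcobalamin, which carries the vitamin into tissues, held 6917, 6229 and 6892 normalized counts in overexpression libraries, against 7095, 8568 and 8289 in flox libraries. Trf, the iron carrier transferrin, held 159.9, 120.3 and 129 in overexpression libraries, against 174, 349 and 202 in flox libraries, and flox replicate 2 was far above the other flox libraries. The log2 fold change was -0.26 ± 0.13 for Tcn2 and -0.82 ± 0.30 for Trf, with -0.46 for Trf without flox replicate 2. For Trf, 49.5% of its windows are shared with the overlapping model Gm20425.

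**Figure D4:**
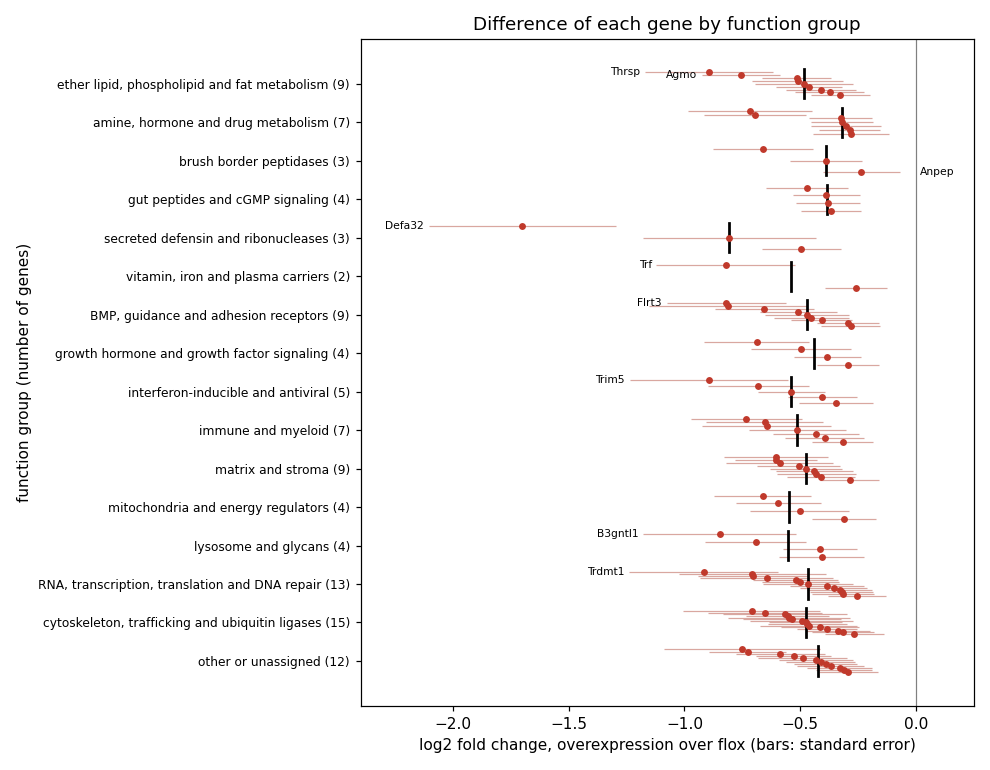
Log2 fold change, overexpression over flox, of each of the 110 genes (points) with its standard error (bars), by function group, the number of genes in brackets and the group median as a black line. Medians run from -0.81 in the defensin and ribonuclease group to -0.32 in amine, hormone and drug metabolism, and all points lie below 0 because the rule required it.

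Bone morphogenetic protein signals, which hold villus cells in a differentiated state, were represented by a ligand and by several receptors. Bmp2, a ligand, held 735, 717 and 689 normalized counts in overexpression libraries, against 894, 1027 and 916 in flox libraries. Acvr1, a type I receptor of this family, held 312, 329.9 and 335 in overexpression libraries, against 397, 499.9 and 491 in flox libraries. Rgma, a co-receptor and repulsive guidance molecule, held 339, 300.1 and 354 in overexpression libraries, against 479, 459 and 422 in flox libraries. The overexpression values of Bmp2 and Acvr1 lay close together. Neo1, the neogenin receptor that binds Rgma and netrins, held 1546, 1841 and 1796 in overexpression libraries, against 2088, 1984 and 2282 in flox libraries. The log2 fold changes of Bmp2, Acvr1, Rgma and Neo1 were -0.41 ± 0.13, -0.51 ± 0.17, -0.45 ± 0.16 and -0.29 ± 0.13. Adhesion and guidance proteins made up the rest of the group: Boc, a hedgehog co-receptor, had -0.47, Flrt3, a leucine-rich adhesion protein, -0.82, Nptn, neuroplastin, -0.28, Tspan18, a tetraspanin, -0.65, and Nptxr, a pentraxin receptor, -0.81. Flrt3 held 129, 259.7 and 199 in overexpression libraries, against 363, 307 and 368 in flox libraries.

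Growth hormone acts through a receptor whose signal is damped by a suppressor that it induces itself, and both were members. Ghr, the receptor, held 618, 609 and 624 normalized counts in overexpression libraries, against 723, 774 and 915 in flox libraries. The overexpression values of Ghr were almost equal, with a mean of 617 ± 7.5, against 804 ± 99.3 in flox libraries (SD, n = 3 each). Socs2, the suppressor, held 923, 1094 and 1055 in overexpression libraries, against 1282, 1334 and 1146 in flox libraries. The log2 fold change was -0.38 ± 0.14 for Ghr and -0.29 ± 0.14 for Socs2. Pdgfc, a platelet-derived growth factor, had -0.50 ± 0.22, and Paqr5, a membrane progestin receptor, -0.69 ± 0.23. Of 43 growth factor and receptor signaling genes, 5 were in the table: Bmp2, Ghr and Ptch1 lower, Vegfa and Hbegf higher. EdgeR called 0 of them, and DESeq2 called 1, in the higher direction.

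Interferon-inducible genes and genes of immune cells numbered 12. Gvin1, a very large interferon-inducible GTPase, held 182, 164 and 131 normalized counts in overexpression libraries, against 248, 269 and 248 in flox libraries, but 96.2% of its windows recur in related models such as Gm4070. Ifit1bl2, of the family that senses foreign RNA caps, held 1325, 1102 and 1039.7 in overexpression libraries, against 1573, 1608 and 1855 in flox libraries. Trim5, known in primates as a capsid-binding restriction factor, held 95.4, 86.2 and 52.5 in overexpression libraries, against 143, 186 and 107 in flox libraries, with the female library the lowest of each group. Trim30d had a log2 fold change of -0.40 and Ifi27l2b of -0.34.

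Among immune and myeloid genes, Cd33, a receptor of myeloid cells, held 142, 116 and 138 normalized counts in overexpression libraries, against 180.5, 227 and 250.3 in flox libraries. Fgl2, a prothrombinase and immune regulator, held 1588, 1708 and 1841 in overexpression libraries, against 2129, 1943 and 2323 in flox libraries. Il33, an alarmin of barrier tissue, held 94.5, 127 and 122 in overexpression libraries, against 169, 226 and 142 in flox libraries. The 3 genes had log2 fold changes of -0.73 ± 0.24, -0.32 ± 0.13 and -0.64 ± 0.28. C2, a complement protease, had -0.43, Ly86, a partner of a toll-like receptor relative, -0.65, Fgd2 -0.51, and Crlf3, a cytokine-receptor-like factor, -0.39. For C2, 32.7% of windows are shared with the read-through model Gm20547. Of 17 B and plasma cell markers, 5 were in the table, each with a lower mean in overexpression ileum. EdgeR called 0 of them and DESeq2 called 1, and the groups overlapped for Cd22 and Pax5. The summed level of the 5 was 78.1 to 150.6 normalized counts in overexpression libraries, against 156 to 581 in flox libraries. Cr2 was at 0 in overexpression replicate 1. The part of B cell number in the values of these 5 genes was not tested. None of the 18 macrophage and dendritic cell markers was in the table. Klrb1, the only listed gene of 16 T and NK cell markers, went the other way. It held 163, 70.2 and 103 normalized counts in overexpression libraries, against 16.8, 33.4 and 39.5 in flox libraries. DESeq2 called it higher and edgeR did not.

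Avil, advillin, is an actin-binding protein that marks tuft cells, the chemosensory cells of the epithelium. It held 218, 147 and 235 normalized counts in overexpression libraries, against 250.5, 387 and 239 in flox libraries, where flox replicate 2 was far above the others. Siglecf and Pou2f3 were the other listed genes of 14 tuft cell markers, and their sum ran from 50.5 to 121 normalized counts in overexpression libraries, against 166 to 208 in flox libraries. The number of tuft cells was not tested.

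Matrix and stromal genes belong mostly to cells outside the epithelium, where the villin promoter is not active. Dcn, the collagen-binding proteoglycan decorin, held 4584, 4336 and 4748 normalized counts in overexpression libraries, against 5119, 6079 and 5457 in flox libraries. It was the only listed gene of 16 fibroblast and stromal markers, and its log2 fold change was -0.29 ± 0.13. Efemp1, a fibulin of elastic matrix, held 728, 558 and 604 in overexpression libraries, against 789.8, 1010.3 and 744 in flox libraries. Adamtsl5, a microfibril-associated protein, held 1422, 943 and 1120.2 in overexpression libraries, against 1511, 1908 and 1882 in flox libraries, and Clu, the secreted chaperone clusterin, 715, 626 and 571, against 796, 819 and 928. The log2 fold changes were -0.43 for Efemp1, -0.60 for Adamtsl5 and -0.41 for Clu. Hspb7, a small heat shock protein of muscle, had -0.44, Spock2, a matrix proteoglycan, -0.48, Plat, tissue plasminogen activator, -0.60, Rasl12, a Ras-like protein, -0.51, and Fndc10 -0.59. In contrast, Acta1, the only listed gene of 14 muscle markers, held 950.2, 587 and 675 in overexpression libraries, against 189, 137 and 281 in flox libraries. Both edgeR and DESeq2 called Acta1 higher. Kdr, the only listed gene of 13 endothelial markers, held 966, 517 and 749.5 in overexpression libraries, against 480.2, 403 and 544 in flox libraries. Its mean was higher in overexpression ileum, but the groups overlapped and neither edgeR nor DESeq2 called it.

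Regulators of mitochondria were few. Ppargc1a, the coactivator that drives mitochondrial biogenesis, held 277, 274 and 353 normalized counts in overexpression libraries, against 424, 398 and 607 in flox libraries. Tigar, a phosphatase that turns glucose away from glycolysis, held 229, 231 and 219 in overexpression libraries, against 316, 395 and 314 in flox libraries. The log2 fold change was -0.66 ± 0.21 for Ppargc1a and -0.59 ± 0.19 for Tigar. Mpv17, an inner membrane protein needed for mitochondrial DNA upkeep, had -0.50 ± 0.21, and Vwa8, a mitochondrial ATPase, -0.31 ± 0.14. Of 54 citric acid cycle and respiratory chain genes, 2 were in the table, Ppargc1a lower and Ndufa2 higher, and neither passed in edgeR or DESeq2.

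Neu1, the sialidase of the lysosome, was abundant at a mean of 94.0 FPKM. It held 7469, 6908 and 5539 normalized counts in overexpression libraries, against 7649.9, 10019 and 8862 in flox libraries, and overexpression replicate 1 nearly reached the lowest flox value. St3gal6, which adds sialic acid to glycans, held 230.1, 192 and 297 in overexpression libraries, against 319, 423 and 419 in flox libraries. The log2 fold change was -0.69 ± 0.22 for St3gal6 and -0.41 ± 0.16 for Neu1. Exons of Dcbld2 on the other strand cover 26.0% of St3gal6. B3gntl1, a glycosyltransferase-like protein, had -0.85 ± 0.33, and Ostm1, a subunit of a lysosomal chloride transporter, -0.41 ± 0.18.

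Genes of RNA, transcription, translation and DNA repair numbered 13. Trdmt1, which methylates cytosine in transfer RNA, held 266, 134 and 255 normalized counts in overexpression libraries, against 386, 273 and 579 in flox libraries. Its log2 fold change of -0.92 ± 0.32 was second to that of Defa32, but flox replicate 2 lay near the overexpression values. Mars, the methionyl-tRNA synthetase, held 650.0, 848 and 777 in overexpression libraries, against 978, 1011 and 920.3 in flox libraries. Crebrf, a regulator of the CREB3 stress factors, held 468, 481 and 585 in overexpression libraries, against 645, 642 and 911 in flox libraries. The log2 fold changes of the other members were -0.71 for Snapc3, of the small nuclear RNA activating complex, -0.70 for Bclaf3, -0.64 for Etaa1, an activator of the replication stress kinase ATR, -0.47 for Zfp277, a zinc finger protein, -0.38 for Pias2, a SUMO ligase, -0.33 for Ell2, an elongation factor, -0.32 for Sertad2, -0.31 for Ash2l, a histone methyltransferase subunit, and -0.25 for Ggnbp2.

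Genes of the cytoskeleton, trafficking and ubiquitin ligases numbered 15, with a median log2 fold change of -0.48. Rnf103, a ubiquitin ligase of the endoplasmic reticulum, held 1649.7, 1648 and 1655 normalized counts in overexpression libraries, against 1952, 2163 and 3148 in flox libraries. Its overexpression values were nearly identical, and its female flox library was the highest. Mpp1, a membrane scaffold protein, held 5887, 6185 and 5886 in overexpression libraries, against 6584, 8230.3 and 7538 in flox libraries. Mylip, the ligase that marks the LDL receptor for degradation, held 319, 300.1 and 407 in overexpression libraries, against 479, 460.4 and 479 in flox libraries. The rest, besides Avil, were Mtcl1 and Kif2a of microtubules, Trak2 of mitochondrial transport, Ap1s2 of clathrin coats, Zdhhc24, a palmitoyltransferase, Rgl1 and Arhgap26 of small GTPase signaling, Akap7, an anchor of protein kinase A, Nostrin, a trafficking partner of nitric oxide synthase, Fam126b and Mospd1, with log2 fold changes between -0.71 for Mtcl1 and -0.27 for Nostrin.

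The remaining 12 genes had no shared function. Tmem144, a predicted carbohydrate transporter, held 426, 363 and 449.9 normalized counts in overexpression libraries, against 609, 644 and 798 in flox libraries, among the wider gaps. Ocm, the calcium-binding protein oncomodulin, held 676, 669 and 564 in overexpression libraries, against 786, 1016 and 775 in flox libraries. Bcl2l14, Cdr2, Tpra1, Depdc7, Fam234b, Fam222a, Ccdc116, Tmem236, 2010106E10Rik and 5031439G07Rik made up the group, which ran from -0.75 for Fam222a to -0.29 for Tmem236. By mean FPKM, a length-corrected level, Defa32 stood at 2195, Anpep at 1394, Guca2b at 407, Aoc1 at 234, Tcn2 at 153, Maoa at 126 and 2010106E10Rik at 113, and these 7 were the members at or above 100 FPKM. The median member was at 5.49 FPKM, against 10.4 for the other 344 protein-coding genes of the same minimum mean, and 53 members were below 5.

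The rule did not name sex, but it asked female and male libraries alike to separate by genotype. That limits the spread between the sexes that a member can show, so the shares of members below are not independent of the rule. Sex was compared with a term for female over male beside genotype. EdgeR called 0 members, with a share of 0% among all 767 rows, and an unadjusted p under 0.05 was held by 8 members, or 7.27%, beside 10.4% of all rows. DESeq2 called 0 members, beside 9 of all rows or 1.17%, and 6 members had an unadjusted p under 0.05, beside 10.8% of all rows. The smallest adjusted p among members was 0.360, for Defa32, with a log2 difference of 0.94 ± 0.29, female over male. The other members under an unadjusted 0.05 were Crebrf with 0.40 ± 0.13, Ppargc1a with 0.46 ± 0.15, Prkg2 with 0.36 ± 0.13, Bche with 0.43 ± 0.18, Trak2 with 0.29 ± 0.13 and Aoc1 with 0.30 ± 0.13, higher in the female libraries, and Trim5 with -0.70 ± 0.30, lower in them. The difference was positive for 71 members, or 64.5%, beside 48.1% of all rows. There was 1 female in each group, so these values rest on 2 mice and also on whatever else set replicate 3 apart.

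The genotype difference was also compared between the sexes, although the rule required it to be negative in each. The interaction term had 0 members past an adjusted p of 0.05 in edgeR, with a share of 0% of the 767 rows, and 1 member, Rnf103, at an unadjusted p under 0.05, or 0.909%, beside 2.09% of all rows. DESeq2 had 0 members by either count, beside 4 of all rows or 0.522% at an adjusted p under 0.05 and 2.48% at an unadjusted one. The median log2 difference between overexpression and flox was -0.47 in the female pair and -0.43 in males, and it was larger in the female pair for 61 of the 110. The interaction coefficient was positive for 44.5% of members, beside 43.7% of all rows, so the members were near the rest of the table. This term, too, rests on 1 female in each group.

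Promoter windows were found for 89 of the 110 genes, with 111 windows in all because some genes have several starts. The genes with no entry were Arhgap26, Ash2l, Bmp2, Boc, C2, Clu, Dcn, Enpp2, Fndc10, Gvin1, Ifi27l2b, Mars, Nptxr, Pias2, Plat, Prkg2, Rgma, Socs2, Tcn2, Trf and Tspan18. The core ACGTG was in 18.9% of the members' windows on either strand, against 36.2% of the 207 windows of the genes that were apart and higher, 28.4% of the 363 windows of the other protein-coding genes of the same minimum mean and 19.6% of all 32851 RefSeq windows. The related GCGTG was in 40.5% of the members' windows, against 47.8% of the higher genes', 42.4% of the other genes' and 32.4% of all. Either core was in 51.4%, 64.7%, 55.9% and 43.8% of the windows in the same order. CACGTG, which contains ACGTG on both strands and is the E-box of Myc and clock factors, was in 11.7% of the members' windows, against 7.25% of the higher genes', 8.54% of the other genes' and 7.15% of all. TATAAA was in 8.11%, 9.18%, 11.8% and 13.6% in that order. The other genes' set holds the higher genes, which supply 207 of its 363 windows. They also supply 75 of its 103 windows with ACGTG, 99 of its 154 with GCGTG and 134 of its 203 with either core. Its shares of the HIF core are thus raised by the higher genes, and a lower share in members is not a difference from genes outside both sets. The windows also differed in base composition, with a median GC content of 57.7% in members, 62.0% in the higher genes, 60.0% in the other genes and 52.7% over all windows, and the part of that in the motif shares was not tested. As the printed windows show, a member may hold several cores or 0, and the fold changes of -0.76 for Agmo and -0.33 for Gnpat stand beside 0 and 3 matches.

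**Figure D5:**
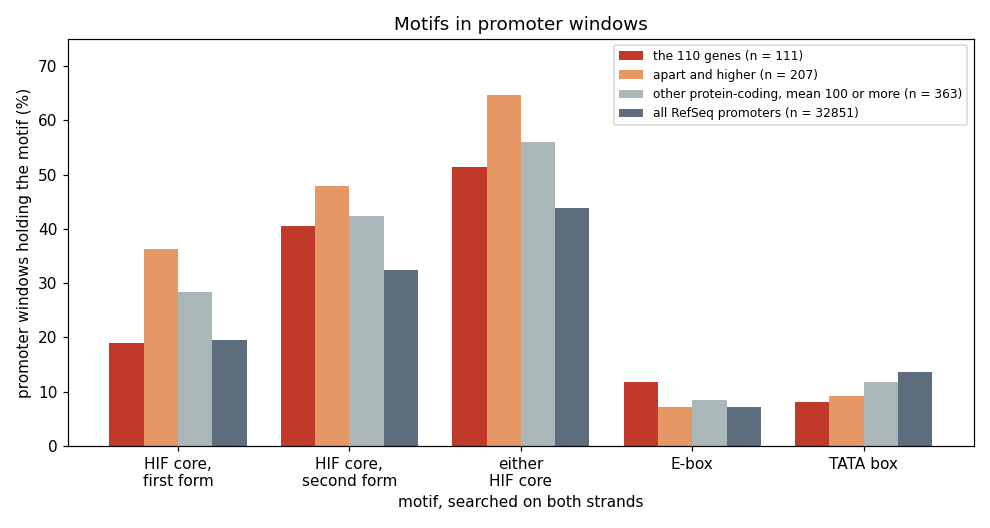
Share of promoter windows (%) that hold each motif on either strand, for the 110 genes, the genes apart and higher, the other protein-coding genes of the same minimum mean and all RefSeq promoters (n is the number of windows). The first form of the HIF core is ACGTG and the second GCGTG, and the E-box is CACGTG. For ACGTG the bar of the 110 genes, at 18.9%, sits near that of all promoters, at 19.6%. The bar of the other protein-coding genes, at 28.4%, includes the genes apart and higher, at 36.2%, which supply 75 of its 103 windows with ACGTG.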

How the data were processed

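Ileum polyA RNA of 6 mice was sequenced, 3 labelled overexpression and 3 labelled flox control, as named by the sample labels. The authors aligned read pairs to GRCm38 (mm10) with HISAT2 (version 2.0.5, per the submitters' processing notes), and deposited whole-number counts per gene from featureCounts, a normalized signal (the count divided by a library size factor) and FPKM. Per the file headers the deposited table also holds the authors' fold changes and p-values, which were not used except to learn how the table was selected and that the test covered 19204 genes. The table lists 923 genes, found to be those with an unadjusted p-value under 0.05 there, so differences lean large. Gene positions, biotype and other annotation are as deposited. No source used here says if counting was stranded.

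The 110 members, their function groups and the gene lists were chosen with earlier results of these data known. Counts of the 767 rows whose mean normalized count was 5 or more were fitted with edgeR (version 4.0.16, R 4.3.3), quasi-likelihood test, scaled by the deposited size factors, without covariates, with Benjamini-Hochberg adjustment over 19204 genes for genotype and over 767 rows for sex and interaction. Alternatives were DESeq2 (version 1.42.0), TMM over the listed genes, library totals implied by FPKM, no filter, sex as a covariate, a replicate block, males only and each library left out. The edgeR fits with genotype and sex together were tested on simulated data, for both terms. The genotype fit without covariates, the interaction and DESeq2 were not tested in this way. The labels number the libraries and say no more on how the animals were kept apart, so p-values measure only the spread between these libraries. Members were named in detail by a rule: the 20 largest differences, the 4 highest by FPKM in each function group with at least 3 members, those at the thresholds and those in a gene list. Others are named to account for every member or were chosen after their values were seen. Promoter windows are from RefSeq on GRCm38.p6, and shared windows of 150 bases from GENCODE M21 transcripts.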

Additional observations from a re-analysis of the deposited data

How the results depend on the processing

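The median log2 fold change of the members was -0.47 as reported and stayed between -0.48 and -0.43 with any library left out. With TMM over the listed genes it was -0.61, because that scaling moved the median of all tested rows by -0.14, from 0.34 to 0.20. Single members kept their negative sign in all 1430 values computed under the alternatives, of which 1380 lay within 1 standard error of the reported value, and 26 of the other 50 came from TMM. The genotype term had 21 higher and 1 lower call among all rows. DESeq2 gave 60 and 13, the replicate block 34 and 5, and males only 1 and 0, and sex as a covariate left 0 lower. Leaving out 1 library gave 4 to 13 higher and 0 to 1 lower calls: 4 higher without overexpression replicate 1, 8 without overexpression replicate 2, 11 without overexpression replicate 3, 13 without flox replicate 1 or 2 and 7 without flox replicate 3, with 1 lower call only without overexpression replicate 2. Members called lower numbered 0, and 1 with DESeq2 (Agmo, adjusted p = 0.0345) and 1 with the replicate block (Defa32, adjusted p = 0.00363 from edgeR). Same-numbered mice also carry the same sex label, so replicate 3 and female sex cannot be told apart. The correlations between their deviations were small, at 0.065, 0.044 and 0.091, although each mouse correlated best with its own number. The sex term had 0 calls, 9 with DESeq2 and 2 without genotype in the model, and the interaction 0, with 4 in DESeq2. The rule gave 110 members, 131 with a minimum mean of 50, 94 with 200, 109 on FPKM, 135 with the families taken in, and 112 to 135 without 1 library, which loosens the separation. The median standard error was 0.24 among the members with the lowest counts, and the part of depth in it was not tested.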
